A study of Mus musculus with 6 samples.

Results

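DNA damage response and repair genes were followed in newborn mouse retina with and without cyclin D1. A list of 52 genes was set by function, with earlier results of these data known. Of the 52, 51 had a probe set annotated to a single gene symbol, among 18193 genes so represented on the array. Xrcc2 was the listed gene without one and is not analysed here. Each gene was represented by its probe set with the highest mean over all arrays. Retinas were taken at birth from wildtype mice and from cyclin D1 -/- mice, which lack the protein encoded by Ccnd1 in every tissue, and were pooled. There were 3 numbered pools of each genotype, each on 1 Affymetrix array. The sources used here do not give the number of animals in a pool, their strain or whether pools shared litters, so the p-values cover only pool-to-pool spread, which may be technical. The study set expression without cyclin D1 beside the genes to which the protein binds, and its binding data were not used here.

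Cyclin D1 is the regulatory subunit of kinases that drive entry into S phase, and in the newborn retina it is made mainly by dividing progenitor cells. Repair genes fall into pathways by the lesion they mend. Homologous recombination copies an intact sister strand to mend a double-strand break, end joining ligates the broken ends directly, the Fanconi anaemia proteins deal with crosslinked strands, and mismatch, base excision and nucleotide excision repair correct faulty or bulky bases in 1 strand. Checkpoint kinases and their mediators sense damage or stalled replication forks and hold the cell cycle. Several of these proteins also work at undamaged replication forks, and the transcripts of many recombination and checkpoint genes are known to be more abundant in cycling cells.

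Levels below are log2 of the normalised signal plus 16, and differences are knockout minus wildtype. A gene was called when its limma p-value, adjusted over all 10916 genes bright enough to be tested, was at most 0.1, the false discovery rate in the submitters' notes. The deleted gene ran from 12.35 to 12.56 in the wildtype pools and from 8.81 to 8.92 in the knockout pools, so all 6 pools matched their labels. The median deposited signal was 40.6 to 50.5 units per array, and 3 arrays per genotype limit the precision. The arrays were not equally alike. Pools 1 and 2 of each genotype differed by an SD of 0.22 (wildtype) and 0.21 (knockout) over the tested genes, against 0.28 to 0.52 for the other pairs. Added hybridisation controls were brighter on wildtype pool 3 and knockout pools 1 and 2 (means of 961 to 1201 units) than on the other 3 arrays (771 to 854 units). Values within each of these sets are given below for the called genes. In the brighter set wildtype pool 3 is the only wildtype array, and in the dimmer set knockout pool 3 is the only knockout array. Wildtype pool 3 was the highest or the lowest of the 6 pools in 24 of the 42 tested repair genes and in 59.0% of all tested genes.

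Of the 42 members that were tested, 4 fell in knockout retinas (9.52%, against 2.63% of all tested genes) and none rose (2.03% of all tested genes rose). The 4 were Topbp1, a scaffold that activates the ATR kinase and also acts when replication starts; Ung, a glycosylase that removes uracil from DNA; Rpa2, a subunit of the protein that coats single-stranded DNA; and Rad54l, a motor protein that helps the recombinase invade the sister strand. Their falls were 1.57- to 2.14-fold. The other 38 tested members were not called, and 9 were too dim to be tested, with a mean over the 6 arrays under 6.21. At an unadjusted p under 0.05, 10 members were lower (6.84% of all tested genes were) and 0 were higher (6.68%). The error model of the submitters' notes called 3 members lower and 0 higher, and 120 and 88 of all 10916 tested genes. The number called lower was 2 without wildtype pool 1, wildtype pool 2, knockout pool 1 or knockout pool 2. It was 10 without wildtype pool 3, where Atr, Brca2, Exo1, Msh6, Rpa1 and Xrcc1 joined the 4. Calls over all tested genes moved likewise. They went from 287 lower and 222 higher to 1055 and 862 without wildtype pool 3. Without wildtype pools 1 and 2 and knockout pools 1 and 2, 129, 151, 99 and 111 genes were lower. Once the similar pools 1 and 2 were averaged within each genotype, 0 members were called, and over all tested genes 26 were lower and 17 higher.

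Topbp1 was the called member whose promoter held the letters of an E2F site, the binding site of the transcription factors that the cyclin D1 kinases release from the retinoblastoma protein, and it is printed for that reason. Promoters were the 250 bases before each gene start in RefSeq (GRCm38.p6), searched on both strands for TTTGGCGC, TTTCCCGC, TTTGCCGC and TTTCGCGC. The Topbp1 window lies on the plus strand at chr9:103305077-103305326, and the capitals mark TTTCGCGC read on the opposite strand, beginning 129 bases before the start.
Topbp1: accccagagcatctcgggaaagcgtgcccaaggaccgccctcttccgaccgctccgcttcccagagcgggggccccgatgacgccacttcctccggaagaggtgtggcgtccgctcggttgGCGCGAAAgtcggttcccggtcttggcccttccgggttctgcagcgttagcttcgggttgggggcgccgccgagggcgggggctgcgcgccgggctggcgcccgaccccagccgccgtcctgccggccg
These letters were present in 611 of 32851 promoter windows of this length (1.86%), in 355 of 8888 tested genes with an entry (3.99%) and in 8 of 43 members with an entry (18.6%), each gene counted once. Among the further repair genes described below, 2 of 89 with an entry held them (2.25%). Among the replication genes, also described below, 8 of 28 with an entry did (28.6%), a larger share than in the members. Beside Topbp1 the members with a match were Brca2, Chek2, Mdc1, Fancg and Xrcc6, which were tested and not called, and Bard1 and Msh3, which were too dim. Brca2 and Chek2 held GCGGGAAA, the opposite strand of TTTCCCGC, beginning 168 and 152 bases before the start, and Mdc1 held TTTCCCGC at 16 bases. Differences of the 6 tested members with a match ran from -0.96 to 0.04, with a median of -0.29. Ung, Rpa2 and Rad54l had an entry and no match, so of the 4 called members 1 held the letters.

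Checkpoint and damage-sensing genes held 2 of the 4 falls, those of Topbp1 and Rpa2. Topbp1 was 8.31, 8.28 and 8.22 in wildtype pools 1, 2 and 3 and 7.24, 7.20 and 7.47 in knockout pools 1, 2 and 3. All knockout pools lay below all wildtype pools, and the gap between the groups was wider than the spread within either. The fall was 1.95-fold, from 8.27 ± 0.05 to 7.31 ± 0.15 (SD, n = 3; log2 difference -0.96, SE 0.12, limma adjusted p = 0.00608). Within the brighter and dimmer sets of arrays the difference was -0.99 and -0.82. The gene has a second, dim probe set, which differed by -0.15, and with the probe sets averaged the difference was -0.56 and the call ended (adjusted p = 0.166). The call also ended with pools 1 and 2 averaged (adjusted p = 0.210, the largest over the alternatives).

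Rpa2 was 8.22, 8.28 and 7.90 in the wildtype pools and 6.998, 7.22 and 7.49 in the knockout pools. The groups did not overlap, although wildtype pool 3 and knockout pool 3 stood nearest to each other. It fell 1.86-fold, from 8.14 ± 0.20 to 7.24 ± 0.25 (SD, n = 3; log2 difference -0.90, SE 0.17, limma adjusted p = 0.0311), and by 0.79 and 0.76 within the brighter and dimmer sets. Its other bright probe set differed by -0.54. The call ended when any of wildtype pools 1 and 2 and knockout pools 1 and 2 was left out (adjusted p from 0.112 to 0.148), when the replicate number was a block (0.149) and when pools 1 and 2 were averaged (0.466). Rpa1, the large subunit of the same complex, was 9.24 to 9.58 in wildtype and 8.98 to 9.26 in knockout pools, with overlap between the groups (log2 difference -0.30, limma adjusted p = 0.306).

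The kinases of this group did not pass the test. Atr, the kinase that Topbp1 activates, was 6.93, 7.07 and 6.25 in wildtype and 6.42, 6.52 and 6.65 in knockout pools, so wildtype pool 3 was the lowest of all 6. Its difference was -0.22 with a 95% interval of -0.73 to 0.29. Atm, the kinase of double-strand breaks, differed by 0.01 (interval -0.40 to 0.41). Chek2, a kinase downstream of Atm, was 7.31 to 7.65 in wildtype and 7.08 to 7.23 in knockout pools without overlap (log2 difference -0.28, limma adjusted p = 0.485), while Chek1, which acts downstream of Atr, was too dim to be tested and differed by -0.33. Clspn, the adaptor between Atr and Chek1, and Mdc1, a mediator that binds marked chromatin at breaks, differed by -0.32 and -0.31 (limma adjusted p = 0.523 and 0.438). The groups overlapped in Clspn and not in Mdc1. The break-binding proteins Rad50 and Nbn differed by -0.04 and -0.03, their partner Mre11a was dim (-0.43), and Trp53bp1, which shields broken ends from resection, differed by 0.02. Over the 11 tested members of the group the median difference was -0.28 (-0.18 without wildtype pool 3), against 0.02 over all tested genes.

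**Figure D1:**
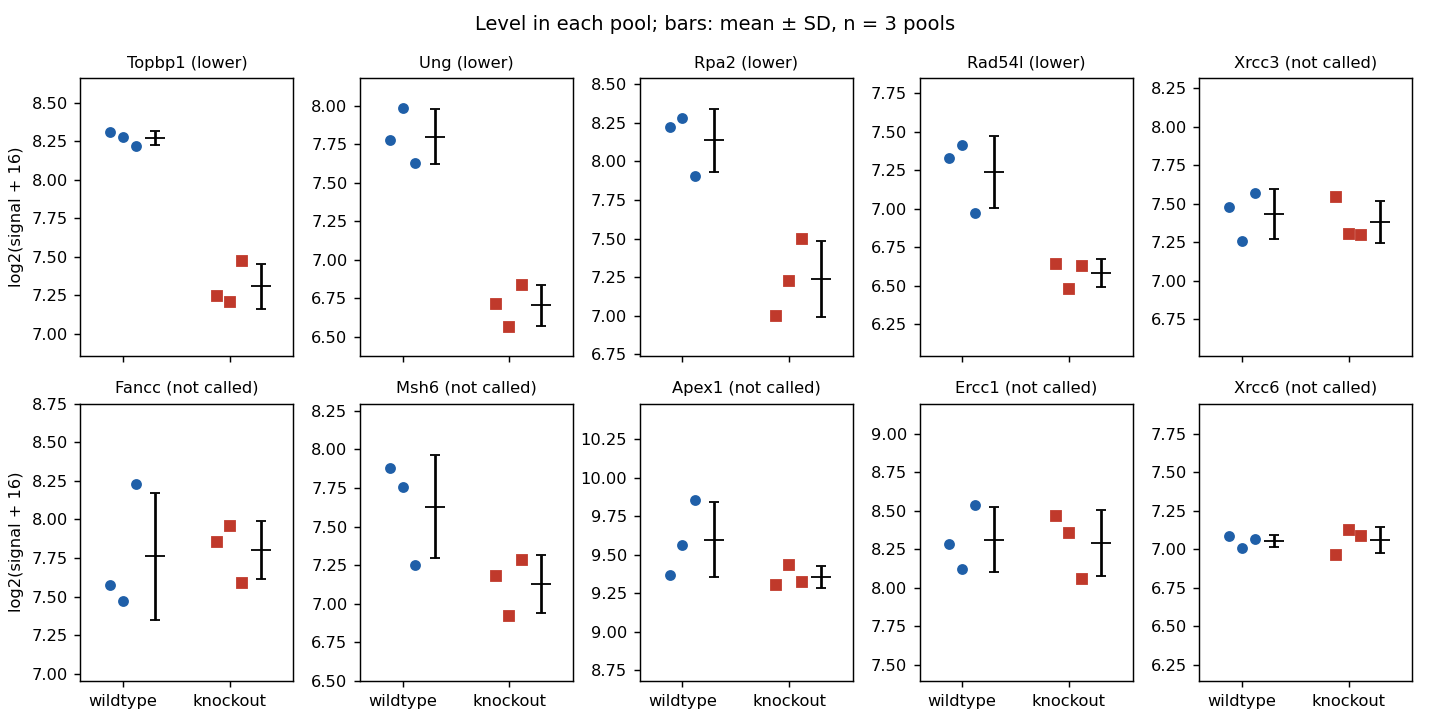
Level of 10 repair genes in each pool, as log2 of normalised signal plus 16, with wildtype pools as blue circles, knockout pools as red squares, and bars for the mean ± SD of 3 pools; every panel spans the same number of log2 units. Topbp1, Ung, Rpa2 and Rad54l show no overlap between genotypes, and the 6 uncalled genes overlap.

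In homologous recombination all 6 tested members had a difference below 0 (45.7% of all tested genes did), and Rad54l was the one called. Rad54l was 7.33, 7.41 and 6.97 in the wildtype pools and 6.64, 6.48 and 6.63 in the knockout pools. The knockout pools lay close together and below every wildtype pool, of which pool 3 was the lowest. The fall was 1.57-fold, from 7.24 ± 0.23 to 6.58 ± 0.09 (SD, n = 3; log2 difference -0.65, SE 0.16, limma adjusted p = 0.0795), with -0.41 and -0.74 within the brighter and dimmer sets. Its 3 other probe sets were dim and differed by -0.73, -0.58 and 0.08. This call had the largest adjusted p of the 4. It ended in 12 of 19 alternatives, among them each removal of 1 pool other than wildtype pool 3 (adjusted p from 0.184 to 0.362), and the largest adjusted p was 0.759, with pools 1 and 2 averaged.

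Brca1 and Brca2, which load and regulate the recombinase at breaks, were not called. Their knockout pools all lay below their wildtype pools, as in 9.48% of all tested genes. Brca1 was 7.42, 7.29 and 7.30 in wildtype and 7.11, 7.01 and 7.002 in knockout pools (log2 difference -0.30, 95% interval -0.58 to -0.02, limma adjusted p = 0.328). Brca2 was 7.35, 7.17 and 7.03 in wildtype and 6.91, 6.65 and 6.73 in knockout pools (log2 difference -0.42, interval -0.75 to -0.08, limma adjusted p = 0.238). Without wildtype pool 3 it was among the 10 members called, when 1055 of all tested genes were called lower. Both differences were smaller than 1.5-fold. Rad51ap1, a partner of the recombinase, differed by -0.38 in the probe set that stands for it (limma adjusted p = 0.337) and by -1.21 and -0.29 in its other bright probe sets. In the first of those it was 7.52, 7.55 and 7.07 in wildtype and 6.08, 5.89 and 6.55 in knockout pools. With probe sets averaged, or with the probe set of largest difference, Rad51ap1 was called lower. Xrcc3, a relative of the recombinase, was 7.48, 7.26 and 7.57 against 7.54, 7.31 and 7.30 (log2 difference -0.05, interval -0.38 to 0.27). The helicase Blm differed by -0.17, with wildtype pool 3 (7.76) above all other pools. Palb2, Bard1, Wrn, Rad54b and Rad52 were too dim to be tested, with differences from -0.42 (Palb2, which joins Brca1 to Brca2) to 0.01 (Rad52, which anneals single strands). The median of the 6 tested was -0.34, and it was -0.17 with the 5 dim members included. Among the further repair genes described below, 11 of this pathway were tested. Of these 5 were below 0 and 0 were called, with a median of 0.03.

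By the probe sets that stand for the genes, base excision and single-strand break repair held the largest fall of the list, that of Ung. It was 7.78, 7.99 and 7.63 in the wildtype pools and 6.71, 6.57 and 6.84 in the knockout pools. The highest knockout pool stayed well below the lowest wildtype pool. Ung fell 2.14-fold, from 7.80 ± 0.18 to 6.70 ± 0.13 (SD, n = 3; log2 difference -1.10, SE 0.15, limma adjusted p = 0.00774), by 0.99 and 1.05 within the brighter and dimmer sets. It has 1 probe set. The call ended in 1 of 20 alternatives, with pools 1 and 2 averaged (adjusted p = 0.213, the largest).

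The other listed members of this group were not called. Apex1, which cuts the strand at the site left without a base, was 9.37, 9.57 and 9.86 in wildtype and 9.30, 9.43 and 9.32 in knockout pools (log2 difference -0.24, 95% interval -0.54 to 0.05, limma adjusted p = 0.501), with -0.35 to -0.22 over its 3 bright probe sets. Polb, the polymerase that fills the gap, differed by 0.14, but its 3 bright probe sets ran from -0.31 to 0.17. Parp1, a sensor of strand breaks, was 8.84 to 8.93 in wildtype and 8.70 to 8.94 in knockout pools (log2 difference -0.03, interval -0.26 to 0.20). That interval excludes a change of 1.5-fold in either direction. Parp2, its relative, varied more, from 7.26 to 8.37 in wildtype pools alone (-0.21, interval -0.82 to 0.40). The scaffold Xrcc1 differed by -0.28 and its ligase partner Lig3 by 0.09. Ogg1, which removes oxidised guanine, was 7.02, 6.99 and 6.91 in wildtype and 6.91, 6.80 and 6.11 in knockout pools, with knockout pool 3 far below the rest (log2 difference -0.37, limma adjusted p = 0.585). The 8 tested members had a median of -0.23, which was -0.08 without wildtype pool 3, -0.11 without knockout pool 3 and -0.07 with the values as deposited.

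In mismatch repair the 3 tested members had differences below 0 (45.7% of all tested genes did) and none was called. Msh6, a subunit of the complex that recognises mismatched bases, was 7.88, 7.76 and 7.25 in wildtype and 7.18, 6.92 and 7.28 in knockout pools, and wildtype pool 3 fell among the knockout pools. Its difference was -0.50 (95% interval -0.94 to -0.06, limma adjusted p = 0.293), and without wildtype pool 3 it was -0.69 and called (limma adjusted p = 0.02, against 0.172 or more in every other alternative). Exo1, the exonuclease that removes the faulty strand, was 6.62, 6.65 and 6.33 in wildtype and 5.81, 6.23 and 6.11 in knockout pools without overlap (-0.48, interval -0.88 to -0.09, limma adjusted p = 0.241). It too was called without wildtype pool 3, where 1055 of all tested genes were called lower. Pms2, part of the nicking complex, differed by -0.24, also without overlap, and Msh3, a second recognition subunit, was too dim and differed by -0.04.

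Fanconi anaemia genes showed no call in 6 tested members. Fanci and Fancd2 form the pair that is ubiquitinated at crosslinks. Fanci was 7.04, 6.64 and 6.69 in wildtype and 6.51, 6.40 and 6.41 in knockout pools, without overlap (log2 difference -0.35, 95% interval -0.70 to 0.01, limma adjusted p = 0.381), and Fancd2 differed by -0.15. The core complex members Fanca, Fancc and Fancg differed by -0.01, 0.04 and 0.04, and in each of them wildtype pool 3 was the highest of the 6 pools. Fancc, for example, was 7.58, 7.47 and 8.23 in wildtype and 7.85, 7.95 and 7.59 in knockout pools, a spread within wildtype far above the difference (interval -0.45 to 0.53). Fancl, the ubiquitin ligase of the complex, differed by -0.05. The group's median was -0.03, with -0.11 to 0.06 when 1 pool was left out, and 0.08 with the values as deposited, where the median of all genes was 0.13.

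Nucleotide excision repair and end joining held no call in 8 tested members. Their median differences were -0.02 and 0.02, but -0.19 for nucleotide excision repair without wildtype pool 3, 0.15 for end joining without wildtype pool 2, and 0.18 and 0.25 within the brighter set of arrays. Ercc1, a subunit of the nuclease that cuts beside a bulky lesion, was 8.28, 8.12 and 8.54 in wildtype and 8.47, 8.35 and 8.05 in knockout pools (log2 difference -0.02, 95% interval -0.37 to 0.33). The helicase Ercc2 and the nuclease Ercc5 both differed by -0.06, the damage recognition factor Xpc by 0.01 and the verifying factor Xpa by 0.03, so the 5 members ran from -0.06 to 0.03. Xrcc6 and Xrcc5 encode the Ku proteins that bind broken ends. Xrcc6 was 7.09, 7.01 and 7.07 in wildtype and 6.97, 7.13 and 7.09 in knockout pools (difference 0.00, interval -0.28 to 0.29), and Xrcc5 differed by 0.02. Xrcc4, which holds the end-joining ligase, differed by 0.11, and the ligase gene Lig4 was dim (0.16).

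**Figure D2:**
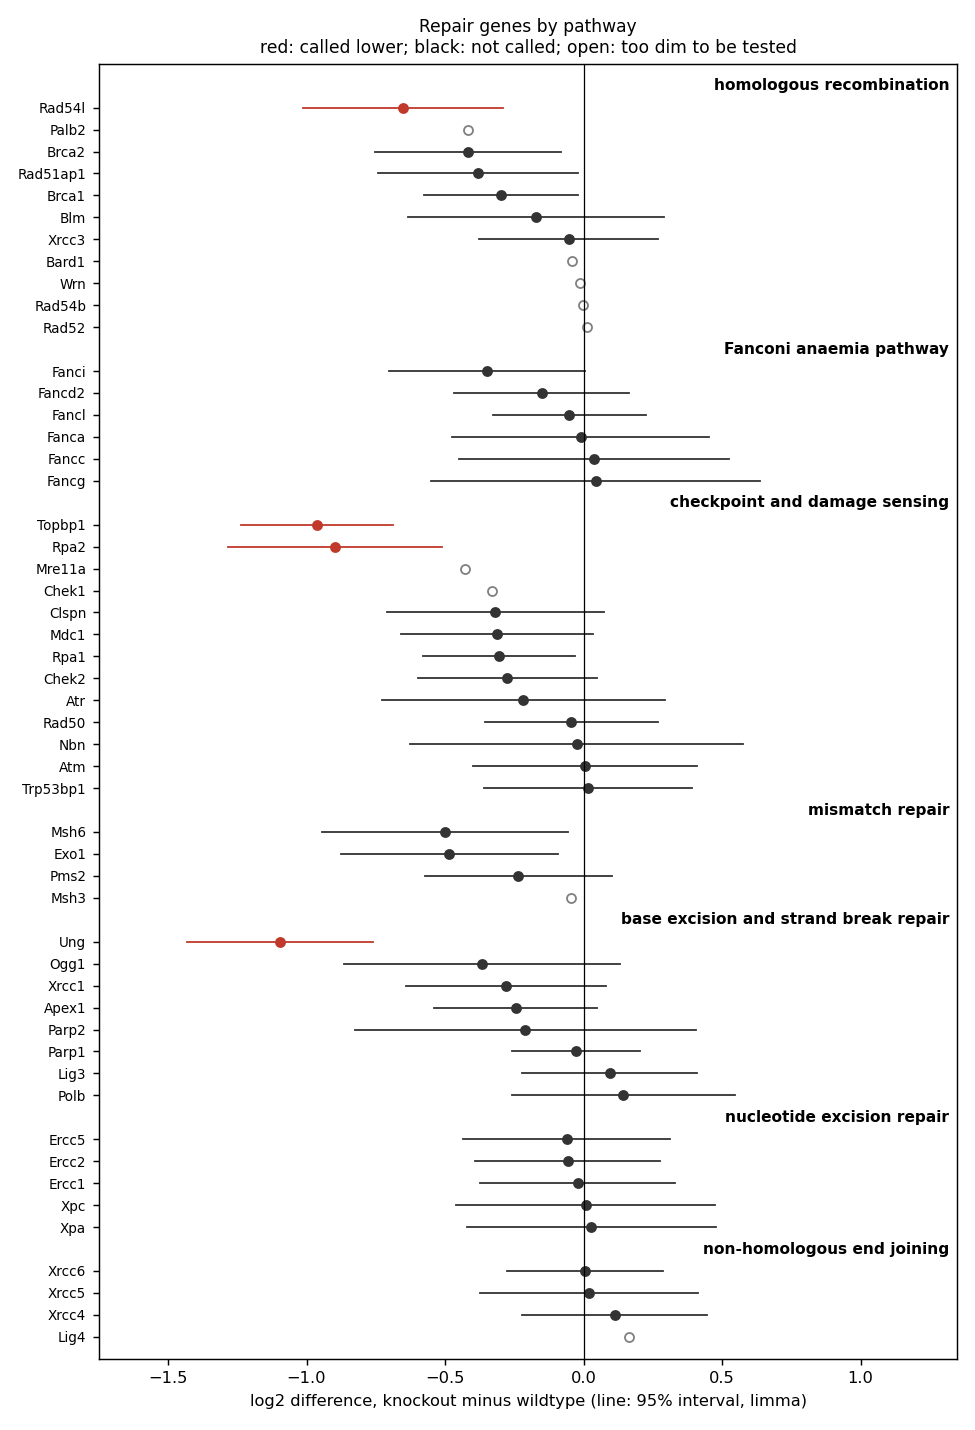
Log2 difference of 51 repair genes, knockout minus wildtype, ordered within each pathway; lines are 95% intervals from limma with 3 pools a genotype, red marks genes called lower, black those not called and open circles those too dim to be tested. The 4 red genes lie between -1.10 and -0.65, while the genes of nucleotide excision repair lie between -0.06 and 0.03.

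Over the whole list, 31 of the 42 tested members (73.8%) had a difference below 0, against 45.7% of all tested genes, and the median was -0.16 against 0.02. With the 9 dim members included the median was -0.06, against 0.02 over all named genes. All knockout pools lay below all wildtype pools in 11 tested members (26.2%, against 9.48% of all tested genes) and above them in 0 (10.5%). With values as deposited, without scaling between arrays, the median of all genes was 0.13, that of the members -0.05, and 22 members were below 0. Relative to the median of all genes the member median was -0.18 under both. Among the 38 members not called, the 95% interval of 23 excluded a change of 1.5-fold in either direction. That of 14 reached a fall of 1.5-fold and that of 1 a rise of 1.5-fold, and none reached 2-fold. These intervals cover only the probe set that stands for each gene. Another bright probe set of Rad51ap1, which was not called, differed by -1.21. The wildtype pools were the more variable genotype, with a larger SD than the knockout pools in 76.2% of tested members and in 72.8% of all tested genes. In 18 members (42.9%) the 2 sets of arrays gave opposite signs, as in 46.2% of all tested genes, and the other 24 were below 0 in both sets. The share of all tested genes below 0 in both sets was not computed. Each set also holds only 1 array of 1 of the genotypes.

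**Figure D3:**
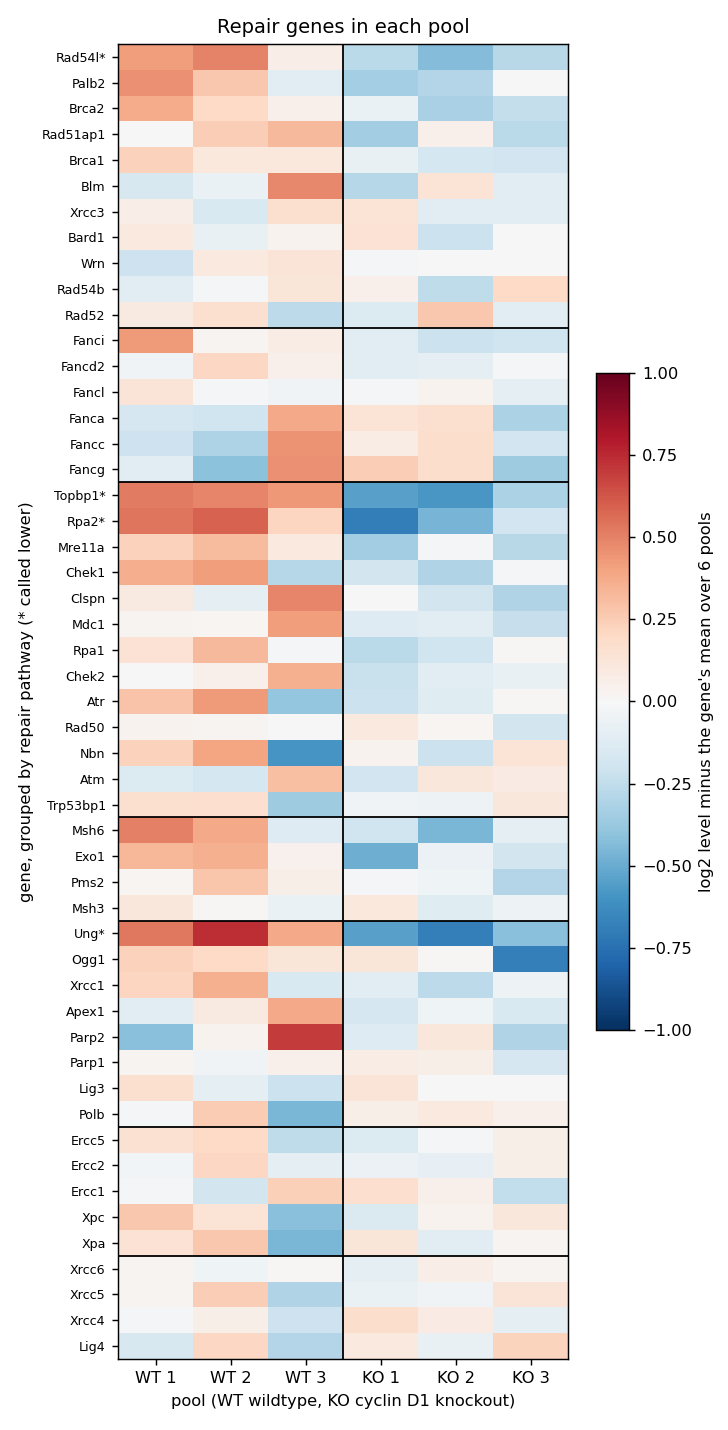
Level of 51 repair genes in each of the 6 pools, shown as the log2 level minus the gene's own mean over the pools (red above, blue below, colour scale from -1 to 1), with genes grouped by pathway and an asterisk on the 4 called lower. The called genes are red in all wildtype and blue in all knockout columns, though Rad54l is only faintly red in wildtype pool 3. Wildtype pool 3 departs from the other wildtype pools in both directions.

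Among 113 further genes, of the same pathways or of lesion bypass, 102 had a probe set and 84 were tested. They too were listed with earlier results of these data known, so they are no independent repeat of the member result. Of these 8 fell (9.52%, against 2.63% of all tested genes) and none rose in limma (2.03%). With p unadjusted and under 0.05, 12 were lower and 1 was higher (6.84% and 6.68% of all tested genes). The submitters' error model called 5 lower and 0 higher, and 120 and 88 of all tested genes. H2ax, the histone variant that is phosphorylated around breaks, was 10.74, 10.64 and 10.49 in wildtype and 9.32, 9.37 and 9.54 in knockout pools, a 2.32-fold fall (limma adjusted p = 0.00108). Usp1, which removes ubiquitin from the Fanconi pair, was 9.90, 9.87 and 10.16 against 8.79, 8.83 and 8.99, a 2.15-fold fall (limma adjusted p = 0.00249). These 2 genes kept their call in all 20 alternatives, averaged pools included. Tipin, of the complex that steadies stalled forks, fell 1.76-fold (limma adjusted p = 0.00350) and lost its call only with averaged pools. Lig1, the ligase of replication and long-patch repair, fell 1.73-fold (adjusted p = 0.0153; call lost in 3 of 20 alternatives), and Ube2t, the ubiquitin-conjugating enzyme of the Fanconi pathway, fell 2.26-fold (0.0369; lost in 6 of 18). Smc1a, a cohesin subunit, Rif1, which limits end resection, and Tdp2, which frees trapped topoisomerase, fell 1.45-, 1.61- and 1.52-fold (adjusted p = 0.0176, 0.0359 and 0.0660) and lost their call in 7, 9 and 12 of 20. The 8 became 4 when wildtype pool 1, knockout pool 1 or knockout pool 2 was left out, 5 when wildtype pool 2 was, 14 when wildtype pool 3 was, and 2 with averaged pools. Without wildtype pool 3, 1055 of all 10916 tested genes were called lower. Of the 8, 4 belong to the checkpoint group, 2 to the Fanconi pathway and 2 to base excision and break repair.

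Genes of DNA replication and mitosis had medians further from 0. The median difference was -0.60 over 32 tested replication genes and -1.02 over 39 tested mitosis genes, against -0.16 over the repair members. Replication genes held 0.424% to 0.448% of the summed signal of all named genes in wildtype pools and 0.260% to 0.270% in knockout pools, and the repair members 0.235% to 0.242% and 0.195% to 0.202%. In pooled tissue, fewer dividing cells and less RNA per dividing cell cannot be told apart. Of 13 progenitor markers 12 were measured, all bright enough to be tested, and Ccnd1 is 1 of them. The other 11 held 0.225% to 0.241% of the signal in wildtype and 0.171% to 0.183% in knockout pools (0.386% to 0.399% and 0.184% to 0.196% with Ccnd1). They went both ways, with 4 called lower, Fgf15 called higher (log2 difference 0.71) and a median of -0.24. No progenitor marker was higher when wildtype pool 1 or 2 or knockout pool 1 or 2 was left out. Markers of retinal neurons held 0.303% to 0.311% and 0.361% to 0.376%, with 14 of 16 measured markers bright enough to be tested. Of these 5 were called higher and 3 lower (Tfap2b, Gad1 and Elavl3, by -1.57, -0.81 and -0.36), and with 1 pool left out 4 to 6 were higher and 2 or 3 lower. Lens markers held 0.287%, 0.296% and 0.107% in wildtype pools 1, 2 and 3 and 0.841%, 0.816% and 2.10% in knockout pools 1, 2 and 3. The pool 3 arrays thus stood apart in both genotypes. Of 18 measured lens markers 17 were bright enough to be tested, with 13 called higher and 0 lower. With 1 pool left out 6 to 14 were higher. Pigment epithelium markers held 0.0398% to 0.0575% and 0.0424% to 0.0524%. Red blood cell markers were all too dim to be tested (at most 0.00291%), and so were 5 of 8 blood vessel markers (0.0393% to 0.0419%) and 5 of 8 microglia and macrophage markers (0.0145% to 0.0185%). The part of cell makeup or of lens tissue in the repair gene differences was not tested.

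**Figure D4:**
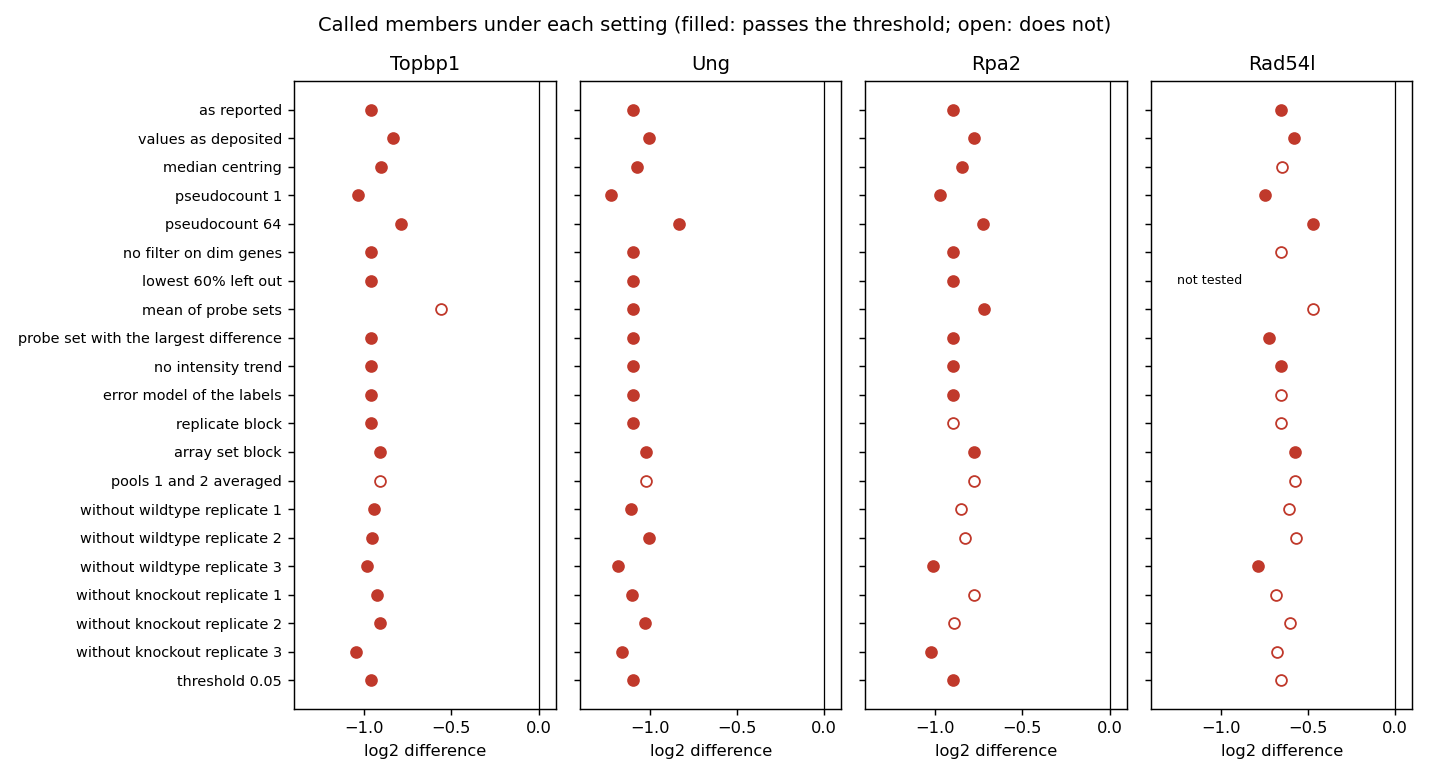
Log2 difference of the 4 called members, knockout minus wildtype, as reported and under 20 alternative settings, with filled circles where the gene passes the threshold and open circles where it does not; Rad54l was not tested with the lowest 60% of genes left out. All differences stay below 0, from -1.22 (Ung, pseudocount 1) to -0.47 (Rad54l), and calls are lost most often for Rad54l.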

How the data were processed

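RNA from 3 wildtype and 3 cyclin D1 -/- retina pools was amplified, labelled and measured on Affymetrix arrays, per the labels' protocols. The deposited table gives 1 linear intensity per probe set and array, and no source used here states the summary program or scaling. Of 45101 probe sets, 64 controls, 932 with several gene symbols and 9160 unnamed ones were left out. Of the other 34945, 34741 were matched by gene ID to RefSeq (GRCm38.p6) and took its symbol, whether or not it differed. RefSeq was used for names and promoters only. Array medians differed by over 0.1 on the log2 scale, so intensities were quantile normalised, floored at 1 and taken to log2(value + 16), which understates the change of dim genes. The lowest 40% of genes by mean over the 6 arrays were not tested. The rest went through limma 3.58.1 (R 4.3.3, lmFit, eBayes with an intensity trend, no covariate, two-sided, Benjamini-Hochberg). On simulated data with independent noise this fit called 68% of changes of 1 log2 unit and 94% of changes of 2 log2 units. Of its 179 calls 17 were false. A 2-fold change can thus go uncalled, and the simulation did not include the likeness of pools 1 and 2. Figures were drawn with matplotlib 3.10.9.

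Members, groups, further repair genes, marker lists and alternatives were chosen with earlier results of these data known. Pool values were to be given for called members and, in each group with fewer than 2 calls, for the brightest uncalled tested member; further repair genes were named when called. Every other pool value printed was picked after the values were seen. Alternatives covered scaling, pseudocount, dim-gene filter, probe set choice, variance model (including the error model in the labels, with a window of 200 probe sets and 5 Bayesian degrees of freedom), a threshold of 0.05, blocks, averaged pools and leaving out each array.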

Additional observations from a re-analysis of the deposited data

How the results depend on the processing

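The 4 members lower became 2 under the replicate block, 0 with pools 1 and 2 averaged and 2 to 10 with 1 pool left out; in the other 12 alternatives there were 3 to 6, and no member was higher in any of the 20. The further repair genes lower (8) became 5 with median centring, 5 with the submitters' error model, 5 with the replicate block, 2 with averaged pools and 4 to 14 with 1 pool left out. Those higher (0) became 1 with the array set as a block and 0 to 2 with 1 pool left out. Ccnd1 kept its call in all 20 alternatives, and the 4 called members their direction. Uncalled genes near 0 changed sign without a call: Xrcc3 (0.050 as deposited, -0.14 to 0.015 with 1 pool left out), Fancc (-0.094 with the probe set of largest difference, -0.13 with the array set block and with averaged pools, -0.10 to 0.27), Ercc1 (0.13 as deposited, 0.058 with median centring, 0.019 with probe sets averaged, -0.12 to 0.10) and Xrcc6 (-0.094 with probe sets averaged, -0.029 to 0.052). The cause of these shifts was not tested. Deviations from the group means of same-numbered pools correlated at 0.17, -0.35 and -0.48 over genes. Deviations within a genotype constrain one another, and pools 1 and 2 were alike in both genotypes. These correlations therefore cannot show whether same-numbered pools shared litters or handling. Under the replicate block, calls over all genes went from 287 lower and 222 higher to 143 and 126. Rad54l was not tested with the lowest 60% of genes left out, nor Xrcc3 and Xrcc6 with the probe set of largest difference, which was dim. As deposited, 70.3% of all calls were rises, against 43.6% after normalisation.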

Other observations

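Lesion bypass genes, which let replication pass damaged bases, are part of the further repair genes counted above. None of the 11 tested passed the limma threshold or an unadjusted p under 0.05, and differences ran from -0.36 (Rev1, a scaffold of the bypass polymerases) to 0.12 (Mad2l2), with a median of -0.02. Among base excision genes, Nthl1, a glycosylase of oxidised pyrimidines, was the further repair gene with the highest difference (0.72, limma adjusted p = 0.427) and was not called: it was 6.22, 5.58 and 6.57 in wildtype and 7.26, 7.09 and 6.17 in knockout pools, which overlap.

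Probe sets of a gene did not always give the same value. Of 13 members with over 1 bright probe set, 6 had differences of both signs, and the widest gap was 0.92, in Rad51ap1.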
